A study of Saccharomyces cerevisiae with 27 samples.

Results

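The nuclear genes for subunits of the mitochondrial respiratory chain and of ATP synthase were followed through 9 groups of budding yeast cultures. The genes were taken by ORF name under a rule that uses no measured value, and all 37 were found among the 6692 genes of the data. Complex II had 4 genes, SDH1 (YKL148C), SDH2 (YLL041C), SDH3 (YKL141W), and SDH4 (YDR178W). The NADH dehydrogenases were 3, NDI1 (YML120C), NDE1 (YMR145C), and NDE2 (YDL085W). Complex III had 9, COR1 (YBL045C), QCR2 (YPR191W), QCR6 (YFR033C), QCR7 (YDR529C), QCR8 (YJL166W), QCR9 (YGR183C), QCR10 (YHR001W-A), CYT1 (YOR065W), and RIP1 (YEL024W). Complex IV had 7, COX4 (YGL187C), COX6 (YHR051W), COX7 (YMR256C), COX8 (YLR395C), COX9 (YDL067C), COX12 (YLR038C), and COX13 (YGL191W). ATP synthase had 14, ATP1 (YBL099W), ATP2 (YJR121W), ATP3 (YBR039W), ATP4 (YPL078C), ATP5 (YDR298C), ATP7 (YKL016C), ATP14 (YLR295C), ATP15 (YPL271W), ATP16 (YDL004W), ATP17 (YDR377W), ATP18 (YML081C-A), ATP19 (YOL077W-A), ATP20 (YPR020W), and TIM11 (YDR322C-A). Cultures of BY4741, a MATa laboratory strain with his3, leu2, met15, and ura3 mutations, were grown in SC medium with 2% glucose. Each received, at 2% of its volume, a concentrate of medium conditioned by calorie-restricted stationary-phase cultures (CRCM), a concentrate of medium conditioned by non-restricted cultures (NRCM), or water. Cells were harvested in log phase, at 24 h (late diauxic shift), or at 96 h (stationary phase). RNA of 3 biological replicates was sequenced for each of the 9 groups, giving 27 libraries. The paper describes smaller aliquots at 24 h and 96 h and does not state whether the times share flasks. The question put to these genes was how the transcripts of each complex changed as the cultures left fermentation, and whether CRCM or NRCM altered them.

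In the inner mitochondrial membrane, electrons from NADH and succinate pass through ubiquinone, complex III, cytochrome c, and complex IV to oxygen, and the proton gradient made on the way drives ATP synthase. Saccharomyces cerevisiae has no proton-pumping complex I. Its NADH is instead oxidized by single-polypeptide enzymes, Ndi1 on the matrix side and Nde1 and Nde2 on the outer side of the inner membrane. In glucose-grown cells these genes are held low by glucose repression, and the Hap2/3/4/5 complex, which binds CCAAT sequences, activates many of them when glucose runs out.

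Recovered library totals were 7396427 to 114316138 reads (median 12375094), and every one of the 37 genes had reads in every library. The lowest count was 40 reads, for NDE2 in 1 log-phase library. Levels are given as CPM, a gene's share of the reads on all genes in the usual CPM unit after TMM scaling between libraries, and fold changes as log2 differences of CPM + 1. A gene is called changed where its limma p, adjusted by Benjamini-Hochberg over all genes tested, was under 0.05. The shares of all genes called, given beside the counts, are the background against which a count can be read. A pair of libraries stood apart. NRCM 24 h replicate 1 was far below its fellow replicates in many of these genes, with 1133 CPM on SDH2 where the others had 2651 and 2549.7. CRCM 96 h replicate 3 had reads on genes that BY4741 lacks, at 58.1 CPM for LEU2 (no other library exceeded 0.197) and 9.98 CPM for URA3 (no other exceeded 0.125). Values without one or the other of them stand beside the results that they moved. In such bulk RNA, fewer cells expressing a gene and less of its RNA per cell cannot be told apart.

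The CCAAT sequence was looked for in the 250 bases before each start codon in the RefSeq R64 genome, which matches sacCer3, on both strands (CCAAT or its reverse complement ATTGG). It was present in 32 of the 37 genes (86.5%), against 2126 of 6001 protein-coding genes (35.4%). The longer ACCAATNA, in which every match also holds a CCAAT, was present in 16 of the 37 (43.2%), against 260 of the 6001 (4.33%). By complex, CCAAT was found in 4 of 4 complex II genes, 2 of 3 NADH dehydrogenase genes, 7 of 9 complex III genes, 6 of 7 complex IV genes, and 13 of 14 ATP synthase genes. The windows of COX4, COR1, CYT1, ATP1, and NDE2 held none. The following stretches lie 250 to 101 bases before the start codon, on the strand of the gene, and belong to 5 genes that were each the highest or the lowest of their complex in a comparison of CRCM or NRCM with water, picked after their values were seen. CCAAT and ATTGG are in capitals.
SDH2, chrXII:54032-54181 (minus strand): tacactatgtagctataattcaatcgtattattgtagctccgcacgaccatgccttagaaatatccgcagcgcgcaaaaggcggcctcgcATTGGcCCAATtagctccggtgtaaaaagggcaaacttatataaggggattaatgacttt
QCR6, chrVI:224870-225019 (minus strand): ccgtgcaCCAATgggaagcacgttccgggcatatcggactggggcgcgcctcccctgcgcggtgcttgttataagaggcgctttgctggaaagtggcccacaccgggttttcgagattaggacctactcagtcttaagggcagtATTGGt
QCR8, chrX:106184-106333 (plus strand): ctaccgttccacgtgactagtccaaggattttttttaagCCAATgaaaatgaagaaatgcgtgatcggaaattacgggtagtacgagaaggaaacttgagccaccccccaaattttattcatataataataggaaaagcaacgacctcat
ATP15, chrXVI:29829-29978 (plus strand): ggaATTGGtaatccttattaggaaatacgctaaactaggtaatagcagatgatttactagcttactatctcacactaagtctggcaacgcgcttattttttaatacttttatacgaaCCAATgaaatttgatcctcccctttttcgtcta
NDE2, chrIV:302961-303110 (plus strand): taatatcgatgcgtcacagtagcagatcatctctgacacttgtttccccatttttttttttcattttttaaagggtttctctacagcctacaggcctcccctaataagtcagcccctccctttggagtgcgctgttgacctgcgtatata
SDH2, QCR6, and ATP15 each had 2 matches in these stretches, QCR8 had 1, and NDE2 had none. Such a match describes the sequence only, and binding was not measured.

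Levels were first compared across the complexes per kilobase of coding sequence, to set genes of different lengths side by side. How reads at the ends of genes were counted is not given, which matters most for short genes such as ATP18 (180 coding bases) and ATP15 (189). In log phase the highest level was that of ATP18, which encodes a small membrane subunit of ATP synthase, at 778 ± 37.4 CPM per kb with CRCM, 801 ± 31.4 with NRCM, and 653 ± 178 with water (SD, n = 3 each). At 24 h ATP15, the epsilon subunit, was highest with CRCM (7616 ± 578 CPM per kb) and with NRCM (8431 ± 1086), while with water ATP2, the beta subunit, was highest (5291 ± 271). At 96 h ATP15 was highest in all 3 groups, at 5479 ± 561 CPM per kb with CRCM, 3825 ± 680 with NRCM, and 3309 ± 154 with water. NDE2 was the lowest of the 37 in all 9 groups. Its mean was 3.77 to 4.65 CPM per kb in log phase and 96.0 to 129 at 24 h. The span within a complex also differed. At 24 h the highest gene of complex II was 2.05 times the lowest with CRCM, 2.42 times with NRCM, and 2.93 times with water, whereas among the NADH dehydrogenases the ratio was 14.7, 12.2, and 13.2. At 96 h that last ratio was 2.82 with CRCM, 8.44 with NRCM, and 16.8 with water, and the mean of NDE2 was 242 CPM per kb with CRCM, 88.5 with NRCM, and 63.6 with water.

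**Figure D1:**
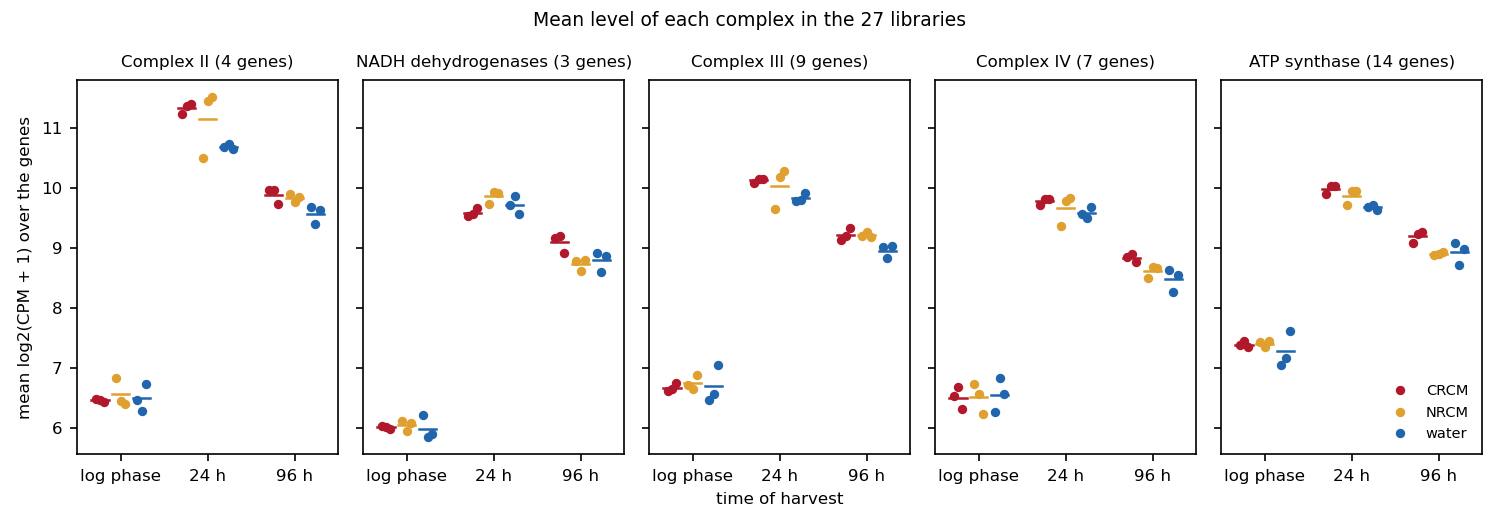
Mean log2(CPM + 1) over the genes of each complex in each of the 27 libraries (y axis) by time of harvest (x axis), with 1 point per library, a line at each group mean, and colors for CRCM, NRCM, and water. The group means of all 5 complexes were lowest in log phase and highest at 24 h, and complex II passed the ATP synthase mean between log phase and 24 h.

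All 37 genes were higher at 24 h than in log phase, with every supplement. None of the 24 h libraries of a supplement overlapped its log-phase libraries for any of the 37 genes. Of all genes, 39.7% were higher and 36.5% lower at 24 h with CRCM, 38.9% and 39.5% with NRCM, and 37.1% and 39.2% with water, and the libraries did not overlap for 83.2%, 75.8%, and 75.3%. The median change of the 37 genes was 3.12 (log2) with CRCM, 2.92 with NRCM, and 2.81 with water, against 0.07, 0.01, and -0.01 over all genes. Complex II had the largest median, 4.88 with CRCM, 4.46 with NRCM, and 4.12 with water, and ATP synthase the smallest, 2.53, 2.40, and 2.27. The NADH dehydrogenases lay between them (3.73, 4.13, and 4.08), as did complex III (3.23, 3.21, and 3.15) and complex IV (3.19, 3.11, and 3.06).

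SDH1, the flavoprotein of succinate dehydrogenase that takes electrons from succinate, changed most with all 3 supplements. At 24 h it had 3383, 3541, and 3736 CPM with CRCM, against 55.7, 48.5, and 74.4 in log phase, a change of 5.90 ± 0.23 (SE). With NRCM it had 2118, 3510.0, and 3779 CPM at 24 h, against 65.6, 52.7, and 73.3, and with water 2022, 2315, and 1904, against 78.5, 44.6, and 93.2 (changes 5.56 ± 0.23 and 4.89 ± 0.23). Every 24 h value thus stood far above every log-phase value, and at 24 h the water libraries and NRCM replicate 1 were lowest. The other complex II genes changed by 3.67 to 4.98. SDH3, a membrane anchor, had the smallest change of the 4 with CRCM (3.84) and NRCM (3.88), and SDH2, the iron-sulfur subunit, had it with water (3.67).

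The 2 external NADH dehydrogenases were at opposite ends of their group. NDE2 changed by 4.37 ± 0.23 with CRCM, 4.80 ± 0.23 with NRCM, and 4.42 ± 0.23 with water, and NDE1, the more abundant, by 2.62 ± 0.18, 2.51 ± 0.18, and 2.67 ± 0.18. The internal enzyme NDI1 changed by 3.73, 4.13, and 4.08. In complex III, the small subunit QCR10 changed most (4.45 with CRCM, 4.40 with NRCM, and 4.16 with water). The smallest change was that of the core protein QCR2 with CRCM (2.72) and of the acidic hinge protein QCR6 with NRCM and water (2.40 and 2.19). In complex IV, COX7 was highest (4.09, 3.87, and 3.79) and COX6 lowest (2.66, 2.36, and 2.37), both small structural subunits. In ATP synthase, ATP15 was highest (3.45, 3.47, and 3.40).

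The smallest change among all 37 was that of ATP14 with CRCM, a subunit of the stator stalk, and of ATP19 with NRCM and water, a small membrane subunit. ATP14 had 531, 582, and 592 CPM at 24 h with CRCM, against 145, 145, and 93.1 in log phase (2.17 ± 0.19). ATP19 had 235, 325, and 301 CPM at 24 h with NRCM, against 86.9, 80.6, and 68.3 (1.85 ± 0.19), and 232, 233, and 244 with water, against 58.2, 95.0, and 84.7 (1.59 ± 0.19). Even for these genes the lowest 24 h library was above the highest log-phase library.

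Between 24 h and 96 h most of the 37 genes fell. With CRCM 32 were lower and 1 was higher at 96 h, and with NRCM and with water 33 each were lower and 0 higher. Of all genes, 24.8% were lower and 22.4% higher with CRCM, 28.2% and 28.8% with NRCM, and 26.5% and 27.1% with water. The 96 h and 24 h libraries did not overlap for 35, 32, and 35 of the 37 genes, against 62.5%, 64.1%, and 72.3% of all genes. DESeq2 and edgeR on the recovered reads also called no member higher with NRCM or with water, and no member was higher there at an unadjusted p under 0.05. The median changes were -0.98 with CRCM, -0.88 with NRCM, and -0.78 with water, and the mean level at 96 h was above that of log phase for all 37 genes with each supplement, a difference that was not tested. The size of this fall depended on the scaling. Without TMM factors the median of all genes was 0.13 with CRCM, 0.51 with NRCM, and 0.71 with water, and the calls became 20 lower and 1 higher with NRCM and 12 lower and 3 higher with water. On that scale the change was above 0 for 10 of the 33 genes called lower with water and for 1 of the 33 with NRCM.

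RIP1, the Rieske iron-sulfur protein of complex III, had the largest fall among the 37 with CRCM and with water, and SDH3 had it with NRCM. RIP1 had 485, 510.2, and 421 CPM at 96 h with CRCM, against 1556, 1599, and 1665 at 24 h, and 410.2, 303, and 347 with water, against 1368, 1313, and 1247 (-1.77 ± 0.19 and -1.90 ± 0.19). SDH3 had 614, 547, and 587 CPM at 96 h with NRCM, against 1400.1, 2738, and 2935 (-1.94 ± 0.21). The 96 h libraries lay wholly below the 24 h libraries in each of these. Without TMM factors RIP1 and SDH3 were still called lower with NRCM and with water. SDH3 also fell most within complex II with CRCM and with water (-1.70 and -1.81). In complex IV, COX8 fell most with CRCM (-1.30), COX4 with NRCM (-1.54), and COX9 with water (-1.60). Of ATP synthase, ATP2 fell most (-1.43 with CRCM, -1.87 with NRCM, and -1.65 with water). The smallest falls among the called genes of complex II were those of SDH1 with CRCM (-1.19) and of SDH2 with NRCM (-0.82) and water (-0.57). In complex IV they were those of COX13 with CRCM (-0.54) and of COX7 with NRCM (-0.60) and water (-0.56). NDI1 changed by -1.70, -1.87, and -1.48, and NDE1 by -1.06, -1.05, and -0.47.

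The exception was NDE2 with CRCM, the single member called higher at 96 h than at 24 h. It had 529.6, 398, and 261 CPM at 96 h, against 137, 159, and 176 at 24 h, a change of 1.28 ± 0.23 (SE, adjusted p = 0.000107). Without CRCM 96 h replicate 3 it was 1.55 (adjusted p = 1.635e-05). With NRCM its change was -0.46 ± 0.23 (SE, adjusted p = 0.0968), and with water -0.78 ± 0.23 (SE, adjusted p = 0.00686), a call. QCR6 was not called with any supplement, at -0.47 with CRCM, 0.30 with NRCM, and -0.02 with water, the highest value of the 37 with the last 2. It had 861, 928, and 747 CPM at 96 h with NRCM, against 586, 698, and 779, and 437, 467, and 539 with water, against 457, 478, and 527. These QCR6 ranges overlapped with water, and with NRCM only 1 of the 24 h libraries exceeded the lowest at 96 h. The others not called were CYT1, ATP1, and ATP18 with CRCM, NDE2, ATP19, and TIM11 with NRCM, and ATP1, ATP14, and ATP19 with water, with changes of -0.85 to -0.25.

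**Figure D2:**
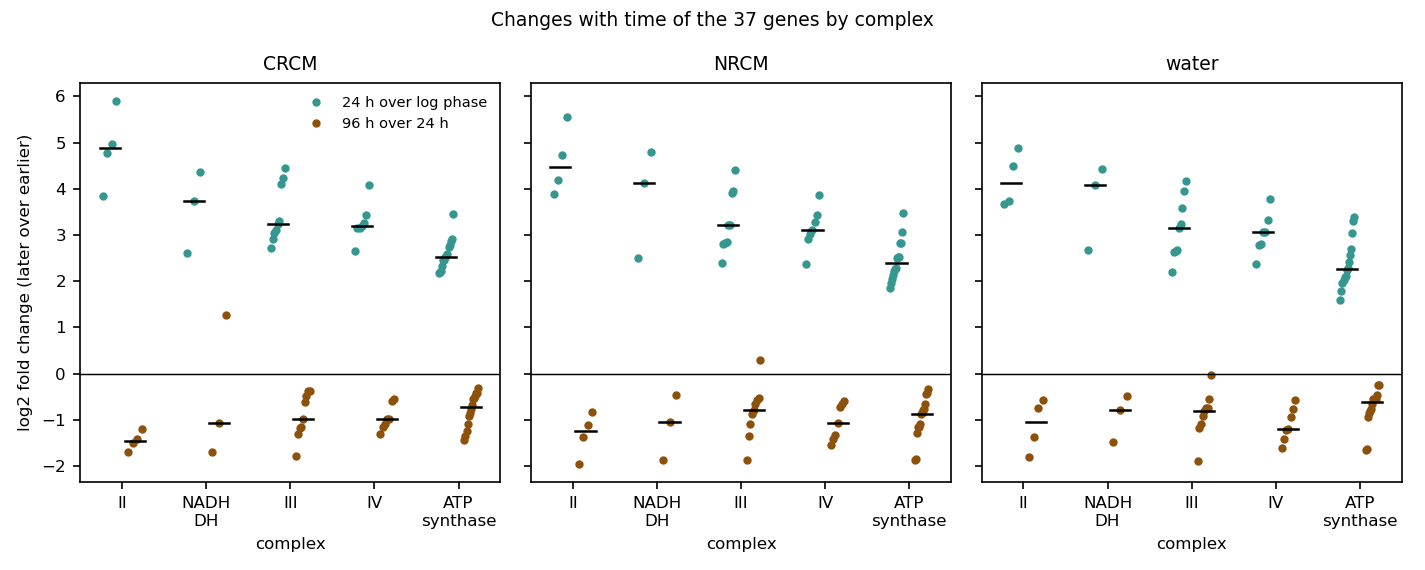
Log2 fold change of each of the 37 genes (points) by complex (x axis) with CRCM, NRCM, and water (panels), colored by 24 h against log phase and 96 h against 24 h, with the median of each complex as a bar. For 24 h against log phase complex II has the highest median in each panel and ATP synthase the lowest, and NDE2 with CRCM, at 1.28, stands alone above the other points for 96 h against 24 h.

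In log phase the supplements made no call among the 37 genes. The counts were 0 higher and 0 lower for CRCM against water, NRCM against water, and CRCM against NRCM with limma, edgeR, and DESeq2. Of all genes, 0% were called in either direction for both comparisons with CRCM, and 0% higher and 0.0154% lower for NRCM against water. At an unadjusted p under 0.05, 1 gene was higher against water with CRCM, the same gene with NRCM, and 0 were lower, and between CRCM and NRCM there were 0 in either direction. It was ATP15, which had 123, 122, and 148 CPM with CRCM and 153, 119, and 158 with NRCM, against 67.9, 71.1, and 132 with water (0.59 ± 0.23, adjusted p = 0.998 and 0.71 ± 0.23, adjusted p = 0.547). The third water library overlapped the supplemented ones. At the low end was COX12, with 63.5, 69.1, and 45.4 CPM with CRCM and 64.0, 60.4, and 41.8 with NRCM, against 58.8, 95.4, and 60.4 with water (-0.26 ± 0.23 and -0.35 ± 0.23). Between CRCM and NRCM the range was -0.27 (ATP1) to 0.15 (TIM11). For CRCM against water the complex II genes differed by -0.24 (SDH1) to 0.20 (SDH2), the NADH dehydrogenases by -0.15 (NDE2) to 0.22 (NDI1), and complex III by -0.19 (QCR9) to 0.21 (QCR6).

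The log-phase libraries overlapped for nearly all members. They did not for 1 gene with CRCM against water (NDI1, 96.4, 92.6, and 88.5 CPM against 86.4, 74.4, and 76.8), 0 with NRCM against water, and 1 with CRCM against NRCM (COR1), against 7.99%, 9.52%, and 6.2% of all genes. The spread within groups was large for some members. ATP1, the alpha subunit, had 408, 391, and 1096 CPM with CRCM, 477, 428, and 1508 with NRCM, and 509, 248, and 911 with water. QCR6 had 108, 93.9, and 181 CPM with CRCM, 104, 115, and 179 with NRCM, and 74.8, 76.2, and 206 with water. The third replicate was the highest of each group for both genes. With the replicate number as a block, 0 of the 37 genes were called in any of the 3 comparisons (ATP1 with CRCM against NRCM at adjusted p = 0.9999).

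CRCM against water at 24 h gave 10 genes higher and 0 lower, where 27.2% of all genes were higher and 24.2% lower. The 10 were SDH1 and SDH2 of complex II, QCR6 and QCR7 of complex III, and ATP3, ATP14, ATP15, ATP16, ATP19, and TIM11 of ATP synthase, with none of the 7 complex IV genes and none of the 3 NADH dehydrogenases. COX5A and COX26, which are outside the 37, were called higher and are given further below. The share of members called higher (10 of 37) was thus near that of all genes. DESeq2 called 10 higher and 1 lower, edgeR 10 and 0, and at an unadjusted p under 0.05 there were 11 and 1. The groups did not overlap for 25 of the 37, against 68.6% of all genes, and the median change of the 37 was 0.22, against 0.02 over all genes. By complex the medians were 0.53 for complex II, -0.15 for the NADH dehydrogenases, 0.28 for complex III, 0.21 for complex IV, and 0.23 for ATP synthase.

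SDH2 had the largest change. It had 2766, 3019, and 3035 CPM with CRCM (2940.0 ± 151, SD, n = 3), against 1152, 1296, and 1084 with water (1177 ± 108), a difference of 1.31 ± 0.28 (SE, adjusted p = 0.00397). All CRCM values were more than double any water value, a factor of 2.13 between the closest libraries. SDH1 differed by 0.76 ± 0.21 (SE, adjusted p = 0.0126), with 3383, 3541, and 3736 CPM, against 2022, 2315, and 1904, also without overlap. The membrane anchors were not called. SDH3 had 1879, 2216, and 2252 CPM with CRCM, against 1905, 1830.4, and 1933 with water (0.14 ± 0.25, adjusted p = 0.653), with 1 CRCM library inside the water range, and SDH4 differed by 0.31 ± 0.23 (SE, adjusted p = 0.284).

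None of the NADH dehydrogenases was called, and all 3 differences were below 0. NDE1, the highest of them, had 2456, 2287, and 2391 CPM with CRCM, against 2522, 2706, and 2152 with water (-0.06 ± 0.16, adjusted p = 0.783). NDE2, the lowest, had 137, 159, and 176 CPM, against 173, 209, and 161 (-0.22 ± 0.25, adjusted p = 0.496), and NDI1 differed by -0.15 ± 0.25 (SE, adjusted p = 0.641). The CRCM and water libraries overlapped for each of the 3. Without TMM factors the median of all genes was 0.42, a shift larger than any of these differences, so their signs rest on the scaling.

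In complex III, QCR6 had 986, 1015, and 1037 CPM with CRCM, against 457, 478, and 527 with water, a difference of 1.04 ± 0.12 (SE, adjusted p = 0.000138), with tight and well separated replicates. QCR7, a small subunit beside cytochrome b, was higher by 0.60 ± 0.19 (SE, adjusted p = 0.0233), but this call was lost in 4 of 19 alternatives, each leaving out a CRCM or water library. QCR8, a neighbor of QCR7 in the complex, was the lowest at 1022, 1095, and 1009 CPM, against 1026, 1103, and 1318 (-0.15 ± 0.16, adjusted p = 0.465), and its groups overlapped. In complex IV, COX8, the highest, had 736, 776, and 800.1 CPM with CRCM, against 569, 531, and 659 with water (0.38 ± 0.20, adjusted p = 0.136). COX4, a zinc-binding subunit and the lowest, had 845, 948, and 916 CPM, against 890.2, 909, and 851 (0.01 ± 0.13, adjusted p = 0.936). The COX8 libraries did not overlap, and the COX4 libraries did.

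In ATP synthase 6 of the 14 genes were higher. ATP19, a subunit bound up with pairing of the enzyme into dimers, had 398, 416, and 424 CPM with CRCM, against 232, 233, and 244 with water (0.78 ± 0.12, adjusted p = 0.000601), without overlap. TIM11, another dimer subunit, was higher by 0.68 ± 0.12 (SE, adjusted p = 0.00105), ATP15 by 0.63 ± 0.13 (SE, adjusted p = 0.00303), ATP14 by 0.61 ± 0.10 (SE, adjusted p = 0.000709), and ATP3, the gamma subunit of the central stalk, by 0.50 ± 0.11 (SE, adjusted p = 0.00474). ATP16, the delta subunit, was higher by 0.36 ± 0.11 (SE, adjusted p = 0.0223), a call lost in 5 of 19 alternatives. At the other end was ATP2, the catalytic beta subunit, with 6039, 6256, and 6479 CPM with CRCM, against 8290.3, 8437, and 7655 with water. All its CRCM values were below all its water values, and the difference of -0.39 ± 0.15 (SE, adjusted p = 0.054) was not called. Without TMM factors the median of all genes was 0.42, so the separation and the sign for ATP2 rest on the scaling. ATP1, the other large subunit of the catalytic head, differed by 0.01.

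The count of higher genes at 24 h rested on how the spread was estimated. It was 19 (with 1 lower, ATP2) when only the 6 CRCM and water libraries were fitted, where 32.3% of all genes were higher and 29.4% lower. It was 25 (with 1 lower, ATP2) when NRCM 24 h replicate 1 was left out of the shared estimate, where the shares were 36.3% and 28.4%. The 25 included COX7, COX8, COX9, COX12, and COX13 of complex IV and QCR9, QCR10, COR1, and RIP1 of complex III. Without TMM factors, when the median of all genes was 0.42, the count was 30 higher and 0 lower, and of all genes 57.4% were higher and 9.97% lower.

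**Figure D3:**
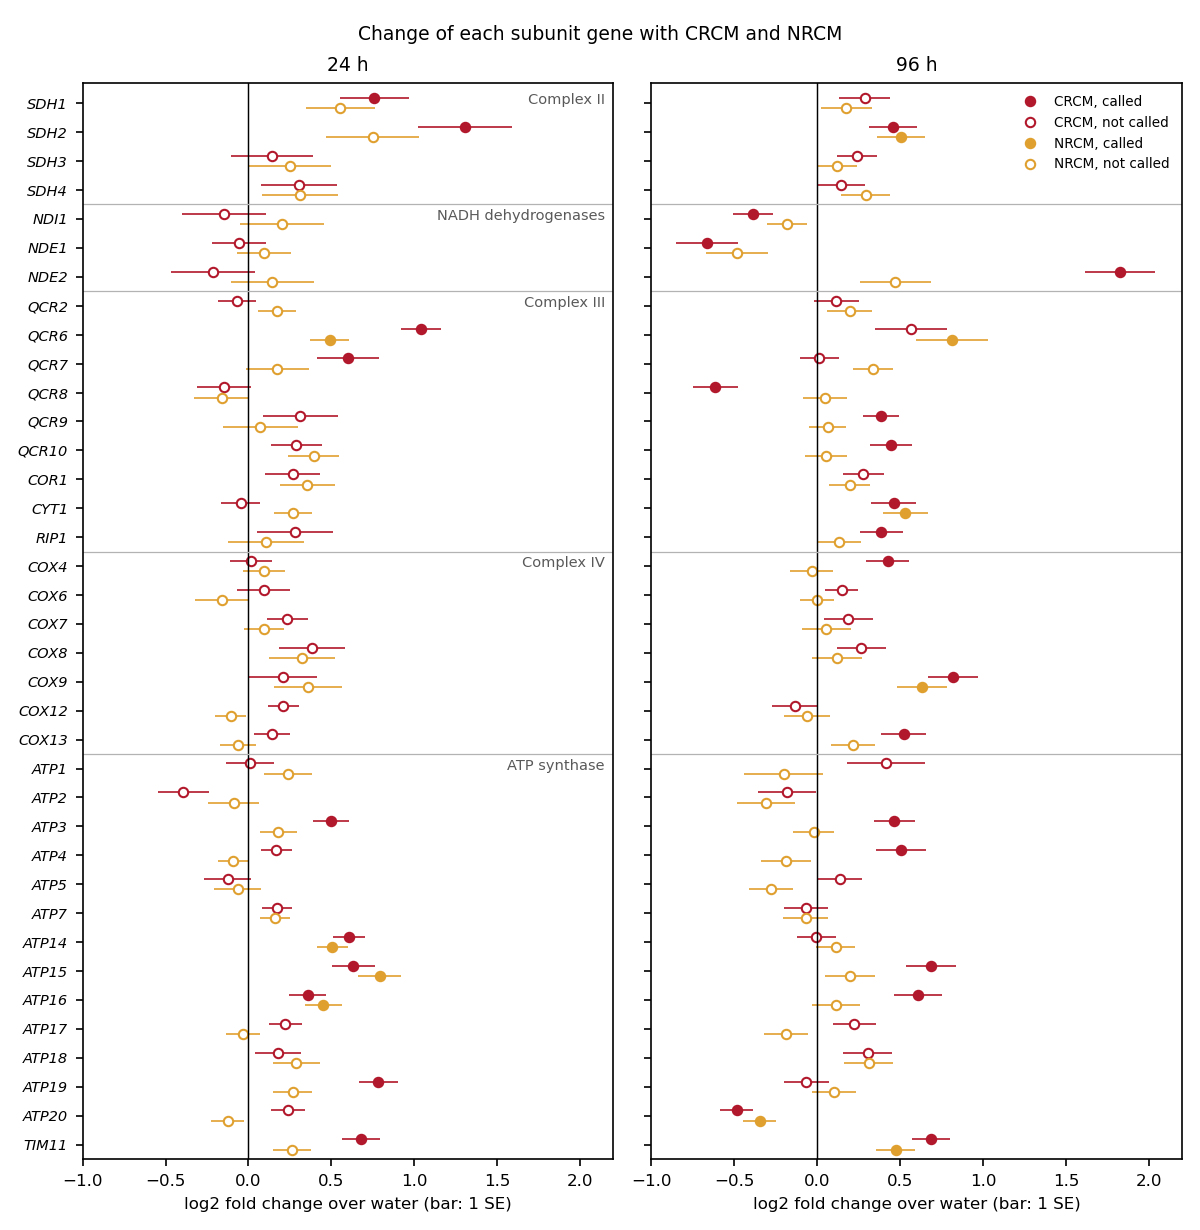
Log2 fold change over water of each of the 37 genes (rows, by complex) with CRCM and with NRCM at 24 h and 96 h, with bars of 1 SE. Filled points are called at an adjusted p under 0.05, and the farthest are SDH2 and QCR6 with CRCM at 24 h and NDE2 with CRCM at 96 h, at 1.31, 1.04, and 1.83.

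At 96 h CRCM against water gave 14 genes higher and 4 lower, where 19.6% of all genes were higher and 21.8% lower. The groups did not overlap for 24 of the 37, against 53.6% of all genes, and the median change was 0.28, against -0.01 over all genes. The 14 came from every complex. They were SDH2, NDE2, 4 of complex III (QCR9, QCR10, CYT1, and RIP1), 3 of complex IV (COX4, COX9, and COX13), and 5 of ATP synthase (ATP3, ATP4, ATP15, ATP16, and TIM11). The 4 lower were NDI1, NDE1, QCR8, and ATP20. By complex the medians were 0.26 for complex II, -0.39 for the NADH dehydrogenases, 0.38 for complex III, 0.27 for complex IV, and 0.26 for ATP synthase. edgeR called 15 higher and 4 lower and DESeq2 17 and 4. Single libraries moved the counts. Those higher were 7 without water 96 h replicate 2, 9 without CRCM 96 h replicate 2, and 16 without CRCM 96 h replicate 3 (22.8% of all genes), and those lower were 2 without water 96 h replicate 1 or replicate 3. Of the calls higher, RIP1 was lost in 10, SDH2 in 8, and COX4 in 5 of 19 alternatives.

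The NADH dehydrogenases moved in opposite directions. NDE2 had 529.6, 398, and 261 CPM with CRCM (396 ± 134, SD, n = 3), against 102, 100.5, and 110.4 with water (104 ± 5.40), the largest difference of the 37 at 1.83 ± 0.21 (SE, adjusted p = 0.000105). The CRCM libraries spread widely but all stood above every other library of the study except 1 NRCM library at 24 h. The call held in all 19 alternatives, with values of 1.58 to 2.11, the upper one without CRCM 96 h replicate 3, the lowest of its group. NDE1 had 949, 1263, and 1228 CPM with CRCM, against 2179, 1361, and 1844 with water (-0.67 ± 0.19, adjusted p = 0.0151). NDI1 had 385, 406, and 349.7 CPM, against 519, 432, and 507 (-0.39 ± 0.12, adjusted p = 0.0253). For both the groups did not overlap. The NDE1 call was lost without water 96 h replicate 1 or replicate 3, as was that of NDI1. Summed over the 3 genes, the level was 1839 to 2067 CPM with CRCM, against 1893 to 2800 with water.

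In complex II, SDH2 was again the highest, with 1292, 1137, and 925 CPM with CRCM, against 823, 754, and 788 with water (0.46 ± 0.15, adjusted p = 0.0285). SDH4, a membrane anchor and the lowest, had 774, 826, and 602 CPM, against 693, 570.3, and 673 (0.14 ± 0.15, adjusted p = 0.46), and its groups overlapped. SDH1 differed by 0.29 ± 0.15 (SE, adjusted p = 0.162) and SDH3 by 0.24 ± 0.12 (SE, adjusted p = 0.136). In complex III, QCR6 had 596, 583, and 1113 CPM with CRCM, against 437, 467, and 539 with water, a difference of 0.57 ± 0.22 (SE, adjusted p = 0.0565) that was not called. CRCM replicate 3 was the one far above the rest. Without it the difference was 0.28 (adjusted p = 0.1018), and without CRCM replicate 1 or replicate 2 it was 0.71 and 0.72, both called (adjusted p = 0.02771 and 0.03755). QCR8 had 434, 474, and 469 CPM, against 650.3, 709, and 698, a difference of -0.61 ± 0.13 (SE, adjusted p = 0.00444) that was called in all 19 alternatives. CYT1, cytochrome c1, was higher by 0.46, QCR10 by 0.44, RIP1 by 0.39, and QCR9 by 0.38.

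In complex IV, COX9 had 548, 566, and 546 CPM with CRCM, against 344, 242, and 345 with water (0.82 ± 0.15, adjusted p = 0.00165), with no overlap. COX12, which faces the intermembrane space, was the lowest at 273, 291, and 232 CPM, against 326, 235, and 295 (-0.13 ± 0.14, adjusted p = 0.463), and its groups overlapped. COX13 was higher by 0.52 and COX4 by 0.42. In ATP synthase, TIM11 had 282, 313, and 364 CPM with CRCM, against 200.01, 170.0, and 209.8 with water (0.69 ± 0.12, adjusted p = 0.00108), and ATP15 had 959, 1156, and 991, against 652, 594, and 630.1 (0.69 ± 0.15, adjusted p = 0.00461). ATP20, which with TIM11 joins the enzyme into dimers, had 103, 117, and 128 CPM, against 166, 148, and 162, and was lower, with a difference of -0.49 ± 0.10 (SE, adjusted p = 0.0028). The subunits of the dimer interface thus lay at both ends, since every TIM11 value with CRCM was above and every ATP20 value below those with water. ATP16 was higher by 0.61, ATP4, the stator subunit b, by 0.50, and ATP3 by 0.47.

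**Figure D4:**
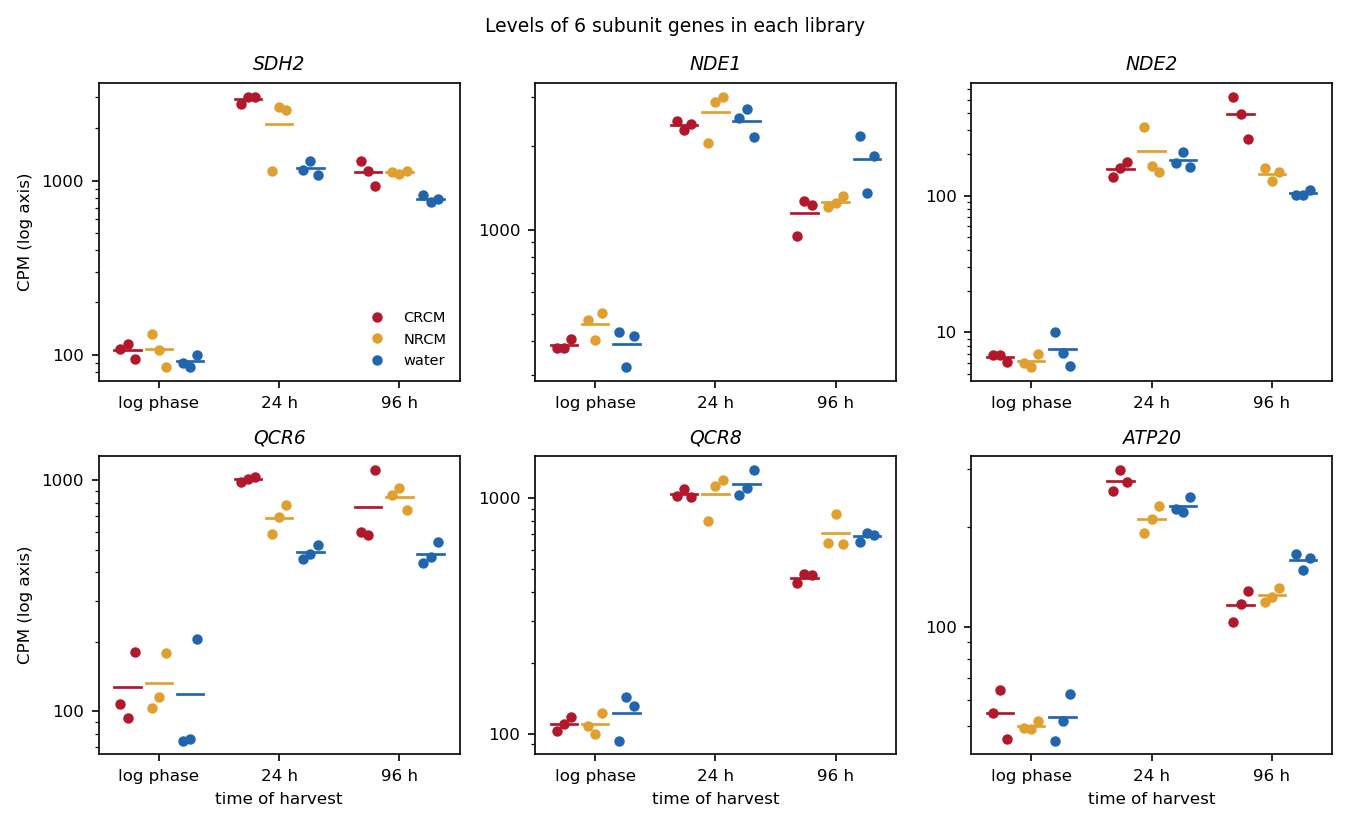
CPM (log axis) of SDH2, NDE1, NDE2, QCR6, QCR8, and ATP20 in every library by time of harvest, with 1 point per library, a line at each group mean, and colors for CRCM, NRCM, and water. The CRCM points of SDH2 and QCR6 stand above the water points at 24 h, those of NDE2 above and those of QCR8, NDE1, and ATP20 below the water points at 96 h.

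The CRCM effect at 96 h was then compared directly with that at 24 h. SDH2, ATP3, ATP15, ATP16, and TIM11 were higher at both times, 5 of the 10 called at 24 h and of the 14 called at 96 h. An interaction term fitted to all 27 libraries tested the difference between the 2 effects, and in it 15.5% of all genes tested were called with a positive and 14.4% with a negative difference. Among the 37 genes 1 difference was positive and 3 were negative. That of NDE2 was 2.06 ± 0.33 (SE, adjusted p = 6.54e-05) and was called in all alternatives. Those of ATP20, at -0.71 ± 0.18 (SE, adjusted p = 0.00432), ATP19, at -0.83 ± 0.27 (SE, adjusted p = 0.0218), and SDH2, at -0.83 ± 0.31 (SE, adjusted p = 0.0439), were negative. The ATP19 call was lost without CRCM 96 h replicate 3 or water 96 h replicate 1. The SDH2 call was lost in 12 of 21 alternatives, among them without CRCM 96 h replicate 3 (adjusted p = 0.104), whereas it was kept without NRCM 24 h replicate 1. Leaving out the last added COX9 as a second positive call (0.62, adjusted p = 0.0167). The other complex II genes and NADH dehydrogenases had differences of -0.59 (NDE1) to 0.12 (SDH3). Without TMM factors 15 differences were called negative, but there the median of all genes was itself -0.55.

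NRCM against water at 24 h gave 4 genes higher, QCR6, ATP14, ATP15, and ATP16, and 0 lower, where 6.92% of all genes were higher and 6.36% lower. edgeR also called 4 and 0, DESeq2 6 and 0, and 9 and 0 passed an unadjusted p under 0.05. The groups did not overlap for 5 of the 37, against 31.4% of all genes. ATP15 had the largest change, with 1369, 1772, and 1639 CPM with NRCM, against 920.3, 989.6, and 843 with water (0.79 ± 0.13, adjusted p = 0.00739), without overlap. ATP14 was higher by 0.51, QCR6 by 0.49, and ATP16 by 0.45. COX6 and QCR8 were lowest (both -0.16). COX6 had 604, 837, and 914 CPM with NRCM, against 824, 794, and 991 with water, and QCR8 had 797, 1123, and 1186, against 1026, 1103, and 1318, with overlapping groups. The complex II genes had the largest median (0.43) and none was called. SDH2 had 1133, 2651, and 2549.7 CPM, against 1152, 1296, and 1084 (0.75 ± 0.28, adjusted p = 0.105), and SDH1 2118, 3510.0, and 3779, against 2022, 2315, and 1904 (0.55 ± 0.21, adjusted p = 0.105).

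In both complex II genes, NRCM replicate 1 lay within the water range while the other 2 NRCM libraries were far above it. Without NRCM 24 h replicate 1, 23 genes were higher and 0 lower, where 20.3% of all genes were higher and 17% lower. These included all 4 complex II genes (SDH2 by 1.17, SDH1 by 0.84, SDH4 by 0.64, and SDH3 by 0.61), NDI1 (0.59), 8 genes of complex III, COX4, COX8, and COX9 of complex IV, and 7 of ATP synthase. Without NRCM 24 h replicate 2 the count was 1, and it was 2 without NRCM replicate 3, without any of the 3 water libraries, or without CRCM replicate 2 or replicate 3. The NADH dehydrogenases differed by 0.20 (NDI1), 0.14 (NDE2), and 0.09 (NDE1) with all libraries, and the membrane anchors by 0.25 (SDH3) and 0.31 (SDH4). COX9 was the highest of complex IV (0.36) and ATP20 the lowest of ATP synthase (-0.13), neither called.

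At 96 h NRCM against water gave 5 genes higher, COX9, QCR6, CYT1, SDH2, and TIM11, and 1 lower, ATP20, where 12.5% of all genes were higher and 12% lower. The groups did not overlap for 12 of the 37, against 53.7% of all genes. QCR6 changed most, with 861, 928, and 747 CPM with NRCM, against 437, 467, and 539 with water (0.81 ± 0.22, adjusted p = 0.023), and all NRCM values were above all water values. COX9 was higher by 0.63, CYT1 by 0.53, SDH2 by 0.50, and TIM11 by 0.47, and ATP20 was lower (-0.35). NDE1 was lowest at 1207, 1249, and 1318 CPM, against 2179, 1361, and 1844 (-0.48 ± 0.19, adjusted p = 0.0789), without overlap. NDE2 differed by 0.47 ± 0.21 (SE, adjusted p = 0.128) and NDI1 by -0.18, and SDH1, SDH3, and SDH4 by 0.17, 0.12, and 0.29. The lowest of complex III was QCR8 (0.05) and of complex IV COX12 (-0.06). The counts were not stable. Those higher were 0 without water 96 h replicate 2, 1 without water replicate 1 or without NRCM replicate 1 or replicate 2, and 8 without CRCM 96 h replicate 3, when 2 were lower (21.6% and 20.2% of all genes). ATP20 was lost without NRCM replicate 1 or replicate 2 or water replicate 1 or replicate 3. The change of the NRCM effect between 24 h and 96 h was called for 0 members with limma, edgeR, and DESeq2 (2 negative at an unadjusted p under 0.05), where 1.02% of all genes were positive and 0.36% negative. Without NRCM 24 h replicate 1, 1 member was called, NDI1, at -0.75 (adjusted p = 0.0184).

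CRCM was also set directly against NRCM. At 24 h 7 genes were higher with CRCM and 0 lower, where 22.4% of all genes were higher and 19.8% lower, and the groups did not overlap for 14 of the 37, against 54.4%. The 7 were COX12, QCR6, ATP3, ATP4, ATP19, ATP20, and TIM11, with 5 of them in ATP synthase. QCR6 differed by 0.55 ± 0.12 (SE, adjusted p = 0.00527), with 986, 1015, and 1037 CPM with CRCM, against 586, 698, and 779 with NRCM. ATP19 differed by 0.52, TIM11 by 0.42, ATP20 by 0.36, ATP3 and COX12 by 0.32 each, and ATP4 by 0.26. SDH2 had the highest value without being called (0.56 ± 0.28, adjusted p = 0.141), at 2766, 3019, and 3035 CPM, against 1133, 2651, and 2549.7. NDE2 was lowest, at 137, 159, and 176 CPM, against 319.7, 165, and 148 (-0.36 ± 0.25, adjusted p = 0.277), where NRCM replicate 1 was far above its fellows. NDI1 differed by -0.35, NDE1 by -0.15, SDH1 by 0.21, and SDH3 by -0.10. The lowest of the other complexes were CYT1 (-0.32), ATP2 (-0.30), and COX9 (-0.15), none called.

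Same-numbered CRCM and NRCM libraries deviated together at 24 h, and the fit with a replicate block called 6 genes higher and 1 lower, as ATP4 was lost (adjusted p = 0.0739) and CYT1 was called lower (-0.32, adjusted p = 0.0365). edgeR called 7 higher and 1 lower and DESeq2 8 and 2. Without NRCM 24 h replicate 1 the same count of 7 was higher and 11 were lower with CRCM, where 28.2% of all genes were higher and 23% lower. The 11 were COX9, QCR2, QCR10, COR1, CYT1, SDH3, SDH4, NDI1, NDE1, ATP2, and ATP18, with NDI1 lowest at -0.70. Without CRCM 24 h replicate 2 or replicate 3, 2 genes were higher.

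At 96 h 10 genes were higher with CRCM than with NRCM and 1 was lower, where 17.3% of all genes were higher and 19.7% lower, and the groups did not overlap for 17 of the 37, against 48% of all genes. NDE2 was the highest, at 529.6, 398, and 261 CPM with CRCM, against 158, 128, and 149 with NRCM (1.35 ± 0.21, adjusted p = 0.000831), and every CRCM value was above every NRCM value. ATP synthase held 6 of the 10. ATP4 was higher by 0.69, ATP16 by 0.50, ATP3 and ATP15 by 0.49 each, and ATP5, the stator subunit OSCP, and ATP17, a membrane subunit, by 0.41 each. The others were COX4 (0.46), QCR10 (0.39), and QCR9 (0.32). The complex II genes lay between -0.15 (SDH4) and 0.12 (SDH3), NDI1 at -0.20, and NDE1 at -0.18, and the lowest of ATP synthase and complex IV were ATP19 (-0.17) and COX12 (-0.07). QCR8 was the gene lower, at 434, 474, and 469 CPM, against 645, 853, and 640.3 (-0.66 ± 0.13, adjusted p = 0.00358), without overlap. ATP3 and ATP4 were higher at both times, 2 of the 7 called at 24 h and of the 10 at 96 h. The count higher was 3 without NRCM 96 h replicate 1, 4 without CRCM 96 h replicate 2, and 5 without NRCM 96 h replicate 3. Without CRCM 96 h replicate 3 it was 12, and 3 were lower (20.3% and 22.2% of all genes), as QCR6 (-0.54) and QCR7 (-0.37) joined QCR8.

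The complexes were compared within each library, as the mean log2(CPM + 1) of a complex minus that of ATP synthase in the same library, where the scaling between libraries almost cancels. For complex II this difference was -1.04 to -0.59 over the 9 log-phase libraries, 0.79 to 1.56 at 24 h, and 0.46 to 1.02 at 96 h. At 24 h it was 1.34 to 1.38 with CRCM, 0.79 to 1.56 with NRCM, and 0.995 to 1.03 with water, so that CRCM stood apart from water and the NRCM libraries spanned both. For the NADH dehydrogenases it was -1.72 to -0.83 in log phase. At 24 h it was -0.46 to -0.36 with CRCM, below both the -0.04 to 0.02 with NRCM and the -0.06 to 0.14 with water. At 96 h these ranges were -0.36 to 0.08 with CRCM, -0.29 to -0.10 with NRCM, and -0.16 to -0.12 with water, which overlapped. For complex III it was -0.80 to -0.56 in log phase and -0.06 to 0.32 at 24 h, and at 96 h it was -0.04 to 0.06 with CRCM, 0.24 to 0.36 with NRCM, and -0.07 to 0.11 with water. NRCM was thus the group that stood apart for complex III at 96 h. For complex IV it was -1.21 to -0.33 in log phase, -0.35 to 0.05 at 24 h, and at 96 h it was -0.50 to -0.23 with CRCM, -0.38 to -0.23 with NRCM, and -0.45 to -0.44 with water, so that CRCM overlapped with both and NRCM lay above water. These are descriptions over 3 libraries a group and were not tested.

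Summed over their genes, complex II transcripts at 24 h reached 9974 to 11172 CPM with CRCM and 5980 to 11912 with NRCM, against 6648 to 7024 with water. The sums for ATP synthase were 19841 to 21712 CPM with CRCM and 20222 to 23931 with NRCM, against 19334 to 21826 with water. The complex II sums with CRCM were therefore all above those with water, and the ATP synthase sums overlapped. That overlap rests on the TMM scaling, whose factors at 24 h were 1.07 to 1.11 with CRCM and 0.807 to 0.849 with water. Without TMM factors the median of all genes was 0.42 for CRCM against water at 24 h.

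Genes that act with these complexes were followed from lists of pathway members. As background to the counts, 27.2% of genes overall were called higher and 24.2% lower for CRCM against water at 24 h and 19.6% and 21.8% at 96 h, and 6.92% and 6.36% with NRCM against water at 24 h and 12.5% and 12% at 96 h. For CRCM against NRCM these shares were 22.4% and 19.8% at 24 h and 17.3% and 19.7% at 96 h. Of the 5 HAP regulators, 4 were higher and 1 lower with CRCM against water at 24 h. HAP4, the glucose-regulated activating subunit, had 1789.6, 1690.4, and 1738 CPM with CRCM, against 801, 954, and 874 with water (0.98 ± 0.26, adjusted p = 0.0105), with no overlap. HAP3 was highest (1.14), and HAP1, a separate heme-responsive regulator, was the one lower (-0.92). With NRCM against water 2 were higher, HAP2 and HAP5, and the HAP2 call was lost in 10 of 19 alternatives. HAP4 differed by 0.28 ± 0.26 (SE, adjusted p = 0.492). NRCM replicate 1 had 639 CPM of HAP4 where the other 2 had 1321 and 1412, and without it HAP4 was higher by 0.67 (adjusted p = 0.001104) and the list had 4 higher and 1 lower. At 96 h HAP3 was higher (0.54) and HAP5 lower (-0.37) with CRCM against water, and HAP4, at 1195, 1326, and 1800.3 CPM, against 1274, 838, and 1064, was not called (0.41 ± 0.18, adjusted p = 0.0938) but passed in 2 of 19 alternatives. HAP4 was higher with CRCM than with NRCM at 96 h (0.79 ± 0.18, adjusted p = 0.00662) and not called at 24 h (0.70 ± 0.26, adjusted p = 0.0533). At 24 h it was called in 7 of 19 alternatives, at 0.35 without NRCM 24 h replicate 1 (adjusted p = 0.01075) and 0.70 with the replicate block (adjusted p = 0.0329).

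Cytochrome c is encoded by CYC1, the main form in respiring cells, and CYC7, the minor form. With CRCM against water at 24 h, CYC1 was higher and CYC7 lower. CYC1 had 469, 511, and 504 CPM with CRCM, against 144, 185, and 153 with water (1.61 ± 0.27, adjusted p = 0.00101). CYC7 had 119.7, 97.6, and 96.9 CPM, against 241, 172, and 355 (-1.24 ± 0.30, adjusted p = 0.0069). Both pairs of groups were clear of each other. At 96 h CYC1 differed by 0.17 ± 0.11 (SE, adjusted p = 0.239), and CYC7 had 15.7, 9.95, and 7.52 CPM, against 61.7, 93.0, and 62.8 (-2.70 ± 0.36, adjusted p = 0.000264) and against 84.5, 229, and 94.6 with NRCM (-3.47). The complex IV subunit V also has alternative forms. COX5A, the aerobic form, was higher with CRCM against water at 24 h (0.50) and 96 h (0.76), and COX5B, the hypoxic form, was lower at 24 h (-0.74) and at 96 h differed by -0.06 ± 0.16 (SE, adjusted p = 0.784). Over the list of 8 cytochrome c and alternative subunit genes, 3 were higher and 3 lower at 24 h and 4 and 1 at 96 h. COX26, a small subunit of supercomplexes, was called higher at 24 h in the main fit and all 19 alternatives, with values of 0.78 to 1.28. It was the highest at 96 h (1.38). With NRCM against water, 1 was higher (COX26, 0.60) and 0 lower at 24 h and 4 and 0 at 96 h, led by SDH9 (1.34), a minor copy of SDH1. Without NRCM 24 h replicate 1 the 24 h count was 4 higher and 2 lower. With CRCM against water at 24 h, the COX5A call was lost in 4 and the COX5B call in 3 of 19 alternatives.

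Assembly factors of complexes II, III, and V were mostly higher with CRCM at 24 h. With CRCM against water, 14 of 18 were higher and 0 lower, with a median of 0.74. The highest was CYT2 (1.33), which attaches heme to cytochrome c1, and the lowest of the 14 was ATP22 (0.43). At 96 h 3 were higher, led by CYC3 (0.95), the heme lyase of cytochrome c, and 1 was lower (CBP3, -0.58, a factor of cytochrome b translation and assembly). The change between the times was negative for 13 of the 18 and positive for 1, where 14.4% of all genes were negative and 15.5% positive. With NRCM against water 4 were higher and 0 lower at each time, led by CYT2 at 24 h (0.77) and CBP4 at 96 h (0.88). The CYT2 call was lost in 6 of 19 alternatives. The count was 14 higher at 24 h without NRCM 24 h replicate 1 and 7 higher at 96 h without CRCM 96 h replicate 3. Between CRCM and NRCM 10 were higher and 1 lower at 24 h, and 0 were higher and 7 lower at 96 h. At 24 h FMC1 was the highest of these (0.91) and SDH8 the one lower (-0.37, lost in 5 of 19 alternatives), and at 96 h CBP3 was the lowest (-0.83).

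The list of ATP synthase inhibitors and supercomplex factors held 5 genes. With CRCM against water 3 were higher and 1 lower at each time. RCF2, a factor of complex III and IV supercomplexes, was highest at 24 h (0.96) and STF1, an inhibitor of ATP hydrolysis, at 96 h (0.55). STF2, named as a stabilizing factor of the inhibited enzyme, was the one lower (-1.64 at 24 h and -1.17 at 96 h). With NRCM against water 2 were higher and 0 lower at each time, RCF2 leading at 24 h (0.71) and RCF1 at 96 h (0.47). The RCF2 call was lost in 9 and the RCF1 call in 5 of 19 alternatives, and 1 was lower at 24 h without NRCM 24 h replicate 1 and 4 were higher at 96 h without CRCM 96 h replicate 3. Of the 4 carriers of ADP, ATP, and phosphate, 1 was higher and 1 lower with CRCM against water at each time. AAC1, an ADP/ATP carrier, was higher by 0.71 at 24 h, a call lost in 5 of 19 alternatives, and 1.89 at 96 h. AAC3, the hypoxic carrier, was lower at 24 h (-1.03), and PET9, the main carrier, at 96 h (-0.49), a call lost in 11 of 19 alternatives. With NRCM against water AAC1 was higher (0.87) and PET9 lower (-0.54, lost in 7 of 19 alternatives) at 96 h, and 0 were called at 24 h. Without NRCM 24 h replicate 1, 2 carriers were higher at 24 h, and without CRCM 96 h replicate 3, 2 were lower at 96 h.

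The mitochondrial genome encodes 7 partner subunits of complexes III, IV, and V. Their messages carry no poly(A) tail in yeast, and the libraries were made from poly(A) RNA, so the values describe what passed that selection. In log phase 6 of them were tested against water. None was called, but all were below 0, with medians of -2.21 with CRCM and -2.31 with NRCM. All 7 were lower with CRCM against water and with NRCM against water at 24 h, with medians of -2.87 and -2.52. COB, cytochrome b, had 8.65, 8.53, and 4.59 CPM with CRCM and 35.0, 4.96, and 8.60 with NRCM, against 203, 96.8, and 129 with water (-4.10 and -3.42). The 3 water libraries were far above all 6 others. OLI1, the ring subunit of ATP synthase, had the smallest of these differences with CRCM (-0.89). At 96 h 5 of 7 were lower with CRCM and 6 of 7 with NRCM, COB again most (-4.89 and -3.94). The CRCM count rested on CRCM 96 h replicate 3, in which OLI1 had 2625 CPM where the other 2 had 11.1 and 12.6, and it was 7 with CRCM and 7 with NRCM without that library. Whether the lower values of these transcripts had a part in the values of the nuclear genes was not tested.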

How the data were processed

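Yeast RNA was measured in 27 libraries, and groups were taken from the sample labels. According to the paper's methods and the submitters' processing notes, the authors selected poly(A) RNA with a directional kit (the labels name a kit not called directional) and mapped reads to sacCer3 with Bowtie2 under default settings. The notes also name bedtools, edgeR, and DESeq2. The counting step, its strand setting, and tool versions are not given in the sources used here. The deposited values are a signal, the fraction of a library's reads that fell on a gene, although their table is titled as raw counts, and each column sums to 1. Whole reads were recovered: testing was possible for 36.5% of values, and 100% of those were whole within 0.1 read. All columns were used. No row lacked a gene. Replicates of a group are separate libraries, named biological replicates in the paper, and no pair of a group was a copy (lowest chi-square per degree of freedom 3.79). Whether the times were sampled from the same flasks is not stated, and the main fits hold no block for it.

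The plan assumed whole counts and edgeR. As the table held shares, limma 3.58.1 with a variance trend (R 4.3.3) was run on log2(CPM + 1) after edgeR 4.0.16 TMM factors, with genes of at least 1 CPM in at least 3 libraries. Supplements were compared over the 9 libraries of a time point (6483, 6577, and 6652 genes tested), and times and interactions over all 27 (6658), in 17 comparisons. Printed CPM use factors from all 27 libraries, which differ by up to 3.71% from those within a time point. Fold changes on this scale understate the change of low genes such as NDE2 in log phase. Adjusted p values are limma's after Benjamini-Hochberg unless another tool is named, ± after a log2 value is its SE, and the threshold was 0.05. Alternatives were other scalings, pseudocounts, and filters, edgeR's quasi-likelihood test and DESeq2 1.42.0 on recovered reads, a replicate block, other sets of libraries, and each library left out. The procedure was tested on simulated data.

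The labels give the replicate numbers but no shared batch. The deviations of CRCM and NRCM libraries with the same number correlated in all 3 pairs in log phase (0.481 to 0.751) and at 24 h (0.227 to 0.340), so blocked values stand beside those comparisons where they changed a call.

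The rule for the 37 genes uses ORF names and no measured value, but this set of genes and the lists were proposed with earlier results of these data known. Named were the highest and lowest gene of each complex in a comparison, called genes against the trend of their complex, all complex II and NADH dehydrogenase genes, HAP4, CYC1, CYC7, COX5A, and COX5B, and the called extremes of each list. Per-library values are given for the extremes over the 37 genes and, for CRCM against water at 24 h and 96 h, of each complex. No member overlaps another annotated gene. Windows of 50 bases were compared only for SDH1 with SDH9, SDH3 with SHH3, SDH4 with SHH4, and NDE1 with NDE2 and with NDI1. In each of these pairs 0 windows were shared. Coordinates and sequences are from RefSeq R64.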

Additional observations from a re-analysis of the deposited data

Results flagged for a closer look

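For 4 of the 37 subunit genes the effect of CRCM over water differed between 96 h and 24 h by a test of the difference itself. These were NDE2 (2.06, adjusted p = 6.54e-05), ATP20 (-0.71, adjusted p = 0.00432), ATP19 (-0.83, adjusted p = 0.0218), and SDH2 (-0.83, adjusted p = 0.0439). Of all genes tested, 15.5% were called with a positive and 14.4% with a negative difference. NDE2 differed from water by 1.83 at 96 h and -0.22 at 24 h, ATP20 by -0.49 and 0.24, ATP19 by -0.07 and 0.78, and SDH2 by 0.46 and 1.31. The cytochrome c genes also passed, CYC1 (-1.42, adjusted p = 0.00166) and CYC7 (-1.42, adjusted p = 0.0313), where CYC1 differed from water by 0.17 at 96 h and 1.61 at 24 h and CYC7 by -2.70 and -1.24. The CYC1 call held in all 21 alternatives and the CYC7 call was lost in 8 of 21 (highest adjusted p = 0.09279). In the lists as a whole, 14 of 18 assembly factors, 3 of 5 HAP regulators, 4 of 8 cytochrome c and alternative subunit genes, 1 of 5 inhibitors and supercomplex factors, and 1 of 4 carriers passed this test.

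CRCM 96 h replicate 3 had reads on genes deleted in BY4741 that none of the comparisons used, 58.1 CPM on LEU2 and 9.98 CPM on URA3. The highest values among the other 26 were 0.197 CPM for LEU2 and 0.125 for URA3. HIS3, deleted only in part in this strain, had 25.1 to 63.6 CPM in all 27, and MET17 (MET15) had 0 in all. In the same library ATP1 had 4418 CPM (2342 and 2801 in the other CRCM libraries at 96 h), QCR6 had 1113 (596 and 583), and NDE2 had 261 (529.6 and 398). The part of that signal in these values was not tested.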

How the results depend on the processing

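Among the 37 genes, a pseudocount of 0.5 or 5 CPM or no filter on low values changed no call in any comparison. The direction of genes called neither in the main fit nor in the alternative was not compared. Of 629 gene and comparison pairs, 624 kept their call or lack of one with edgeR and 612 with DESeq2. With median-ratio size factors 622 did, with the replicate block 619, and without TMM factors 537. Of these settings the fit without TMM factors changed the most pairs. In it the median of all genes shifted to 0.42 for CRCM against water at 24 h, 0.51 for 96 h against 24 h with NRCM, and 0.71 with water. For CRCM against NRCM at 24 h it was 0.34, and for the change of the CRCM effect -0.55.

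The genes named next were called with or without TMM factors, and turns of sign among genes called in neither fit are not listed. Without TMM factors the sign turned for QCR2 (0.35), CYT1 (0.37), and STF1 (0.31) with CRCM against water at 24 h, for ATP18 (0.073) for 96 h against 24 h with NRCM, and for these with water: COX7 (0.12), QCR6 (0.66), QCR10 (0.14), SDH2 (0.11), NDE1 (0.21), ATP3 (0.025), ATP7 (0.13), ATP14 (0.43), ATP15 (0.13), ATP18 (0.22), ATP19 (0.43), ATP20 (0.14), TIM11 (0.14), and CYC1 (0.52). Without CRCM 96 h replicate 3, AAC3 and OLI1 turned in sign and were called lower with CRCM against water at 96 h. Leaving out each library gave -1.23 to 0.696 for AAC3 and -1.53 to 2.35 for OLI1.

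Counts of members higher moved without TMM factors to 30 for CRCM against water and 17 for CRCM against NRCM at 24 h, and to 1 with NRCM and 3 with water for 96 h against 24 h. Those lower moved to 3 for NRCM against water and 2 for CRCM against NRCM at 96 h, to 20 with NRCM and 12 with water for 96 h against 24 h, and to 15 for the change of the CRCM effect. With only the 6 libraries compared, 19 were higher and 1 lower for CRCM and 2 higher for NRCM against water at 24 h, and 2 lower for NRCM at 96 h. With all 27 fitted, 2 were higher for NRCM against water and 4 for CRCM against NRCM at 24 h, and 1 higher and 0 lower for NRCM against water at 96 h. With median-ratio factors and with DESeq2, 1 was lower for CRCM against water at 24 h and 2 higher for the change of the CRCM effect. For CRCM against NRCM at 24 h, 1 was lower with median-ratio factors and with edgeR and 2 with DESeq2, and DESeq2 gave 2 lower for both NRCM against water and CRCM against NRCM at 96 h. The causes were not tested. The share of all genes called moved with the setting too, and without TMM factors the median of all genes was 0.42 for CRCM against water and 0.34 for CRCM against NRCM at 24 h. The counts in this section therefore describe the settings and are not results about the members.

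Leaving out each library in turn, with those of the third group added after seeing the data, gave 8 to 25 higher and 0 to 1 lower for CRCM against water at 24 h and 7 to 16 and 2 to 4 at 96 h. For NRCM against water it gave 1 to 23 higher at 24 h and 0 to 8 higher and 0 to 2 lower at 96 h, and for CRCM against NRCM 2 to 7 and 0 to 11 at 24 h and 3 to 12 and 1 to 3 at 96 h. For 96 h against 24 h, 26 to 32 were lower with CRCM, 30 to 34 with NRCM, and 28 to 33 with water. The change of the CRCM effect gave 1 to 2 positive and 1 to 3 negative, and that of NRCM 0 to 1 negative. The rise of all 37 genes at 24 h over log phase kept its count of 37 in all of these.

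With the replicate block, 6 were higher for CRCM against NRCM at 96 h and 1 lower at 24 h. No other count of members moved by over 1.5 times. In the other comparisons not every same-numbered pair correlated above 0.1 (correlations of -0.376 to 0.479), and whether they shared a batch is not known. In log phase all pairs against water were still above 0, at 0.042 to 0.479 with CRCM and 0.084 to 0.407 with NRCM. So were those of NRCM against water at 24 h, at 0.022 to 0.345. At 1 CPM a gene rests on few reads, but the members, except NDE2 in log phase, were far above that, and the number of replicates limits precision more than depth.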
